A study of Mus musculus with 12 samples.

Results

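The slow-fiber sarcomere genes examined here are 10 genes whose products build or serve the contractile apparatus of slow, type I muscle fibers: Myh7, Myl2, Myl3, Tnnt1, Tnni1, Tnnc1, Atp2a2, Myoz2, Tpm3 and Casq2. They were taken by gene name from a table of 37748 genes, and all 10 were among the 16679 genes with enough reads to be tested. The members were chosen on values from these libraries, so their levels and changes are a description. No p-value is given for them, and counts of members past the call threshold are printed beside the share of all genes and support nothing. RNA-seq was performed on poly(A) RNA of gastrocnemius muscle from 12 mice, 3 in each of 4 groups, all 13 weeks old. Control mice were ACTA1-MCM/+ without tamoxifen (TMX) and FLExD mice were FLExDUX4/+ without TMX. Moderate mice were FLExDUX4/+;MCM/+ with 1 intraperitoneal dose of 5 mg/kg TMX, and severe mice had the same genotype with 2 doses of 10 mg/kg on consecutive days. Muscles of both bi-transgenic groups were taken at day 9. ACTA1-MCM is a TMX-activated Cre recombinase driven by a human skeletal actin promoter, and the floxed transgene carries human DUX4, whose misexpression causes facioscapulohumeral muscular dystrophy. Recombination in this cross is mosaic, so a muscle holds fibers with and without DUX4. No group received TMX without the DUX4 transgene or had both transgenes without TMX, so in the comparisons of moderate and severe mice with controls the drug, the second transgene and DUX4 cannot be told apart.

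Skeletal muscle fibers are classed by their myosin heavy chain. Slow fibers carry Myh7, and fast fibers carry Myh2, Myh1 or Myh4. Each class pairs its myosin largely with its own light chains, troponin subunits and calcium pump. Mouse gastrocnemius is mostly fast, with its slow fibers gathered in a small deep region. The members lie on chromosomes 14, 5, 9, 7, 1 and 3, with Myl2 and Atp2a2 sharing chromosome 5 and Myoz2, Tpm3 and Casq2 sharing chromosome 3, and the slow form of each protein is encoded by a gene of its own rather than by a switch within a shared gene. Myh7 spans chr14:54970684-54994626 on the minus strand of GRCm38, and Tnnc1 spans chr14:31208312-31211729 on the plus strand of the same chromosome. Exons of Myh7, Myl2, Myl3 and Atp2a2 overlap exons of a gene on the other strand, which for Myh7 are Mhrt, Gm29015 and Gm31251. The counting is not stated to use strand, so reads of these partners cannot be told apart.

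The 250 bases before the start of 4 members are shown because these genes ended at opposite extremes, Myh7 and Myl3 among the lowest and Tnni1 and Casq2 among the highest relative to controls. Sequences are RefSeq promoters on GRCm38.p6, 5′ to 3′ on the gene's strand, and capitals mark matches to 4 motifs on either strand: the E-box CANNTG, the MCAT element CATTCC, the MEF2 site and the CArG box. Myh7 is chr14:54994627-54994876 on the minus strand, Myl3 is chr9:110763428-110763677 on the plus strand, Tnni1 is chr1:135799171-135799420 on the plus strand and Casq2 is chr3:102086165-102086414 on the plus strand.
Myh7: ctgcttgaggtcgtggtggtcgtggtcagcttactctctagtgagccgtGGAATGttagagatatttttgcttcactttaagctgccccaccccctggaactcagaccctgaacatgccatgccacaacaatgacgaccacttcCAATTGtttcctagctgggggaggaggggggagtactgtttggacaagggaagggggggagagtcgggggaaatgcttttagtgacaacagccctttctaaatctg
Myl3: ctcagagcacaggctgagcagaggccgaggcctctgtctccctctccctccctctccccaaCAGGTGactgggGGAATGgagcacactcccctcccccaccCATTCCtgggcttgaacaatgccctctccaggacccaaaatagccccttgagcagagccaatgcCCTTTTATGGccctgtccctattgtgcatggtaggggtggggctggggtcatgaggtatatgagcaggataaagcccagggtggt
Tnni1: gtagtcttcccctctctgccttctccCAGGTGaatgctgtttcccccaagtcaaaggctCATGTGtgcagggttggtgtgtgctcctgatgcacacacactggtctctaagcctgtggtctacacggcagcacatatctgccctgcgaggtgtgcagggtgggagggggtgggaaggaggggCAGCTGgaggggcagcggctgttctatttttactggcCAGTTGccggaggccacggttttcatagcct
Casq2: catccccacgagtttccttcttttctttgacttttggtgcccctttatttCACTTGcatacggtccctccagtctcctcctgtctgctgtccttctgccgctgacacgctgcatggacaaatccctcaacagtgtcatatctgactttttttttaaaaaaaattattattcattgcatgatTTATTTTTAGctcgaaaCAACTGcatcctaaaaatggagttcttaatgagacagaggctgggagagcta
The Myh7 window held 1 E-box and 1 MCAT element, and the Myl3 window held 1 E-box, 2 MCAT elements and 1 CArG box. The Tnni1 window held 4 E-boxes and no match to the other motifs, and the Casq2 window held 2 E-boxes and 1 MEF2 site. No marked match in these windows overlaps another. Of the 9 members in the promoter table, which does not list Atp2a2, an E-box was present in 9, an MCAT element in 3, a MEF2 site in 2 and a CArG box in 1. Among all 32841 windows of the table the shares were 66.2%, 12.6%, 2.92% and 1.47%. The start listed for Myl2 lies 7762 bases from its principal GENCODE start, so its window is not shown.

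Libraries held 23796902 to 29136403 counts. Pan-fiber genes (Acta1, Ckm, Des, Ttn, Neb and Ryr1) took 10.3% to 13.9% of counts in controls, at least 9.17% in FLExD mice, 7.33% to 9.21% in moderate mice and 4.14% to 5.48% in severe mice. The scaling factors of the trimmed mean of M-values (TMM) ran from 0.706 in controls to 1.87 in severe mice. Counts were expressed as CPM, the reads of a gene relative to its library's total after TMM scaling. Markers counted below as risen or fallen had an adjusted p under 0.05 and a log2 fold change of at least 0.5. Of all genes, 24.4% were called higher and 17.0% lower in moderate mice, and 32.9% higher and 27.9% lower in severe mice. Macrophage markers rose in 5 of 5 cases in both models. Their sum ran from 38.4 to 48.1 CPM in controls, 267 to 348 CPM in moderate mice and 603 to 678 CPM in severe mice. Fibroblast markers rose in 2 of 4 cases in both models, and Dcn fell in severe mice. Their sum ran from 603 to 1512 CPM in controls, 2239 to 2368 CPM in moderate mice and 3771 to 4896 CPM in severe mice. In severe mice 3 of 3 endothelial, 2 of 4 Schwann cell and 2 of 3 adipocyte and 3 of 3 erythroid markers fell, and 1 of 3 smooth muscle markers fell while 1 rose. These falls rest on TMM scaling for some markers: with library size alone the endothelial Pecam1 was at 0.70 on the log2 scale, called higher, and Cdh5 at 0.15, not called, and Dcn at 0.51, called higher. The part of these cells in the values below was not tested. Fewer slow fibers and less slow-fiber RNA in each fiber cannot be told apart in whole muscle. Cardiac muscle shares several members, among them Myh7, Myl2, Myl3, Tnnc1 and Casq2. Of the cardiac markers, however, Myl7 was at 0 in all 12 mice, Nppa reached at most 0.158 CPM and Mybpc3 at most 0.283 CPM. Myh6, which shares sequence with Myh7, was at 0.0943 to 2.70 CPM.

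In mice without recombination, the slow-fiber genes varied several-fold from animal to animal, and they did so together. Their summed level ran from 611 to 3095 CPM in controls and from 817 to 3434 CPM in FLExD mice. Myh7, the slow myosin heavy chain, stood at 501, 1033 and 170 CPM in control mice 1127, 1246 and 1349. In FLExD mice 1358, 1367 and 1378 it stood at 1083, 938 and 255 CPM. Mice 1246, 1358 and 1367 were the 3 highest of these 6 for all 10 members, and mouse 1349 was the lowest for 9 of 10, Casq2 being the exception with mouse 1378 lowest. The ratio of the highest to the lowest control was 6.81 for Tnnc1, 6.63 for Tnni1, 6.08 for Myh7 and 2.59 for Casq2, and the other members lay between. The SD of log2 CPM over the 3 controls ran from 0.79 for Casq2 to 1.39 for Tnnc1, against a median of 0.18 and a 95th percentile of 0.78 over all genes tested. All 10 members exceeded that percentile in controls, and all 10 did so in FLExD mice. The labels do not give the sex of the mice, so its part in this spread was not tested.

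The spread was smaller in severe mice than in controls for all 10 members, and in moderate mice for 9, the exception being Myl2 at 1.21 against 1.07. In moderate mice 4 of 10 members exceeded the 95th percentile of all genes (0.63), namely Myh7, Myl2, Myl3 and Tnnc1, and in severe mice 3 did (0.54), namely Myh7, Myl2 and Myl3. Atp2a2, the calcium pump of the slow-fiber sarcoplasmic reticulum, stood at 238, 212 and 240 CPM in the 3 severe mice, an SD of 0.10 against 1.09 in controls. Tpm3, the slow tropomyosin, stood at 102, 92.4 and 86.3 CPM, an SD of 0.12 against 0.98 in controls. Both lay below the severe-group median of all genes tested (0.17), where in controls both had been above the 95th percentile. How much of either gene's total came from cells other than slow fibers was not tested. On the log2(TPM + 1) scale, where TPM is the RSEM estimate corrected for transcript length, 8 members exceeded the percentile in moderate mice and 2 in severe mice, and Tpm3 in severe mice, at 0.17, lay above the median of 0.16.

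**Figure D1:**
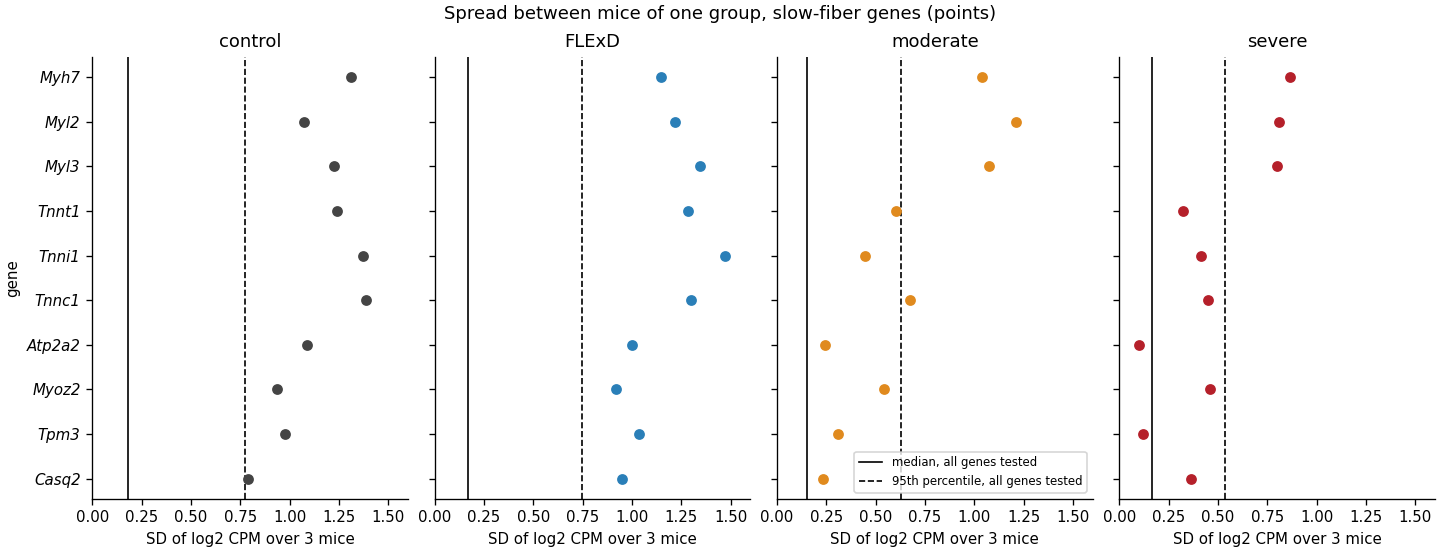
SD of log2 CPM over the 3 mice of each group (x axis) for the 10 slow-fiber genes (y axis, points), with the median (solid line) and 95th percentile (dashed line) of all 16679 genes tested. All points lie beyond the dashed line in control and FLExD mice, 4 do in moderate mice and 3 in severe mice.

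No member was called in FLExD mice against controls. A call is an adjusted p under 0.05 with a log2 fold change of at least 0.5 in edgeR's quasi-likelihood test over all genes, which was met by 0.00600% of genes in this comparison, a single gene. The log2 fold changes of the members ran from 0.39 for Casq2 (SE 0.49) to 0.74 for Tnni1 (SE 0.74), and the mice of both groups overlapped for all 10. As the members were chosen with these groups known, nothing is read from the count of 0.

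In the moderate model the myosin subunits stood lower and the remaining members mostly lay within the control range. Myl2, the slow regulatory light chain, was at 160, 318 and 71.9 CPM in controls and at 13.6, 52.7 and 11.2 CPM in moderate mice, a log2 fold change of -2.83 (SE 0.83). Myl3, the slow essential light chain, was at 158, 367 and 67.2 CPM in controls and at 16.6, 51.0 and 12.4 CPM in moderate mice, a log2 fold change of -2.89 (SE 0.87). For both light chains every moderate mouse lay below every control, and mouse 1308 stood apart from the other two moderate mice toward the controls. Myh7 stood at 86.5, 275 and 73.4 CPM in moderate mice, a log2 fold change of -1.97 (SE 0.85), and mouse 1308 overlapped the controls. Myl2 and Myl3 were the 2 members called lower and none was called higher, where 17.0% of all genes were called lower and 24.4% higher. The members were chosen with this comparison known, so nothing is read from that count.

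In the moderate model the thin-filament and calcium-handling members stood above the myosin subunits in log2 fold change, a difference that was not tested. Tnnc1, the slow troponin C, and Tnnt1, the slow troponin T, had log2 fold changes of -1.55 (SE 0.76) and -1.34 (SE 0.71), with overlapping mice. Both values lay within the SE of that of Myh7. Tnni1, the slow troponin I, stood at 52.2, 112 and 16.9 CPM in controls and at 80.9, 76.8 and 46.1 CPM in moderate mice, inside the control range. Its log2 fold change was 0.17 (SE 0.74). Casq2, the slow and cardiac calsequestrin that stores calcium in the sarcoplasmic reticulum, had a log2 fold change of 0.30 (SE 0.49), and Atp2a2 one of -0.27 (SE 0.55). Myoz2, a Z-disc protein that binds calcineurin, had a log2 fold change of -1.04 (SE 0.57), and Tpm3 one of -0.68 (SE 0.54). The count of 2 members called rested on single mice. It was 0 without control 1246, moderate 1236 or moderate 1331, 4 without control 1349 (Myh7, Myl2, Myl3 and Tnnc1) and 3 without moderate 1308 (Myh7, Myl2 and Myl3).

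In the severe model the myosin subunits were at 8.62 CPM or less, while slow troponin I and calsequestrin had higher means than in controls. Myl2 was at 0.225, 0.236 and 0.724 CPM, from 10, 10 and 30 reads, a log2 fold change of -8.86 (SE 1.2) from controls. Myl3 was at 0.451, 0.424 and 1.26 CPM, a log2 fold change of -8.12 (SE 1.17). Myh7 was at 3.09, 2.95 and 8.62 CPM, a log2 fold change of -6.86 (SE 1.07). The highest severe mouse, 1079, was below the lowest moderate mouse for each of the 3 genes. Against the moderate group the log2 fold changes were -6.03 (SE 1.14) for Myl2, -5.23 (SE 1.09) for Myl3 and -4.89 (SE 0.98) for Myh7.

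Casq2 stood at 118, 80.9 and 130 CPM in severe mice and at 26.7, 68.6 and 26.5 CPM in controls, a log2 fold change of 1.43 (SE 0.50), with every severe mouse above every control. Tnni1 stood at 141, 101 and 180 CPM, a log2 fold change of 1.22 (SE 0.75). For Tnni1 severe mouse 1066 lay below control 1246, at 112 CPM, and all 3 severe mice lay above all 3 moderate mice. FLExD mice 1358 and 1367, at 151 and 128 CPM, also lay above severe mouse 1066, and FLExD mouse 1358 lay above severe mouse 1047. Myoz2 stood at 22.2, 15.9 and 30.1 CPM in severe mice, below all controls (42.3 to 152 CPM), a log2 fold change of -1.93 (SE 0.58). Tnnt1 stood at 62.9, 47.2 and 73.6 CPM and Tnnc1 at 45.6, 28.0 and 50.2 CPM. Both lay within the control range, with log2 fold changes of -1.14 (SE 0.70) and -0.90 (SE 0.74). Atp2a2 and Tpm3, at log2 fold changes of -0.22 (SE 0.55) and -0.23 (SE 0.54), lay near the middle of the control range.

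The median log2 fold change of the 10 members was -1.19 in moderate and -1.02 in severe mice, beside 0.04 and 0.08 over all genes tested. In all, 4 members were called lower and 1 higher in severe mice against controls, where 27.9% of all genes were called lower and 32.9% higher. Against moderate mice 3 were called lower and none higher, where the shares were 18.8% and 17.6%. As the members were chosen with these comparisons known, nothing is read from these counts. Without severe 1047 only Myh7, Myl2 and Myl3 were called against controls, 3 in place of 5. Casq2 was also not called without control 1127, control 1349 or severe 1079, and Myoz2 was also not called without control 1246 or severe 1066. With library size alone 3 were called lower (Myh7, Myl2 and Myl3) and 2 higher (Casq2 and Tnni1), and with pan-fiber scaling, which sets the summed pan-fiber genes equal in all mice, 3 lower and 4 higher. Of all genes, 6.42% were then called lower and 75.4% higher with library size alone, and 1.56% lower and 93.7% higher with pan-fiber scaling. The direction of Myoz2 depended on the scaling. Its log2 fold change was -0.63 with library size alone and 0.64 with pan-fiber scaling. Over the 21 settings the values of Tnnc1 (-1.36 to 1.67), Tnnt1 (-1.57 to 1.42), Atp2a2 (-0.62 to 2.34) and Tpm3 (-0.60 to 2.34) changed sign as well. With pan-fiber scaling Casq2 and Tnni1 stood at 4.03 and 3.78, and Myh7, Myl3 and Myl2 still stood at -4.34, -5.60 and -6.34.

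**Figure D2:**
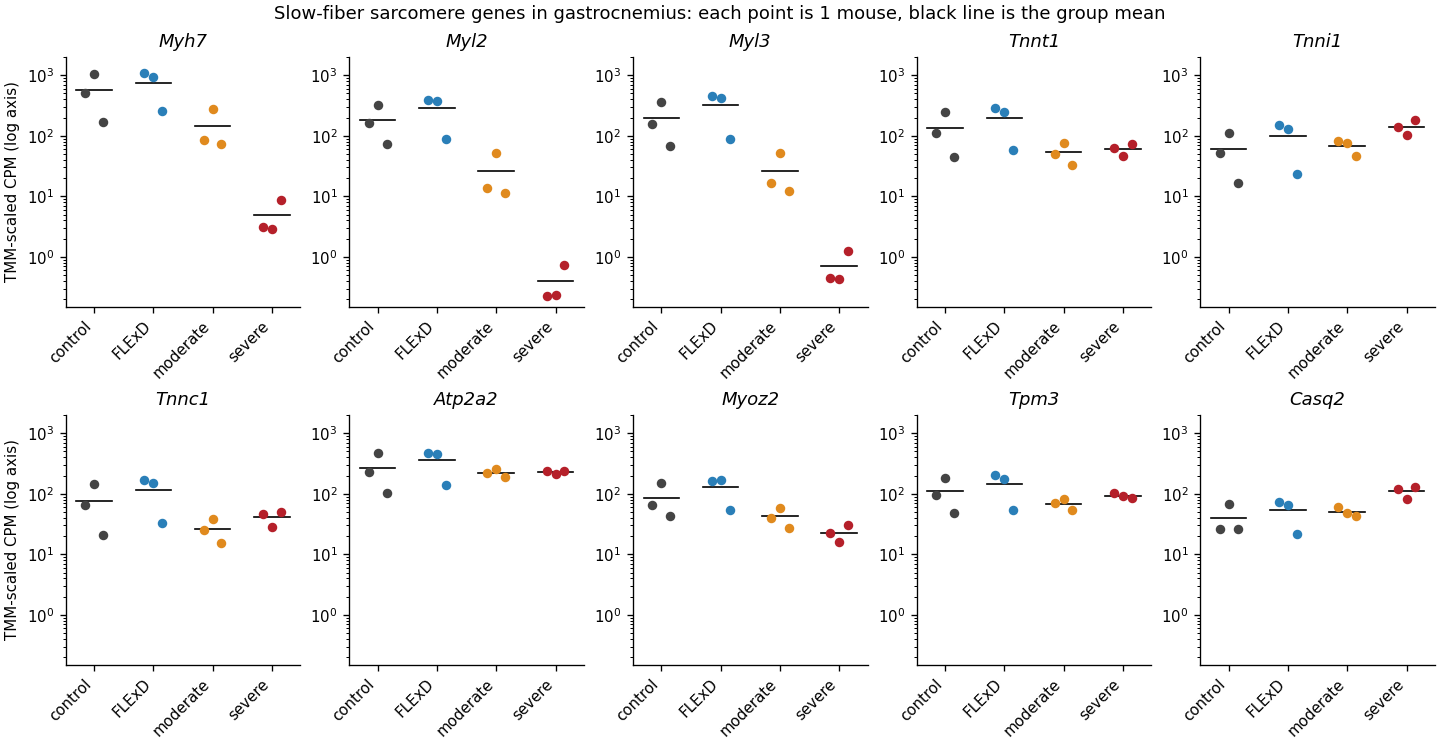
TMM-scaled CPM (y axis, log scale) of the 10 slow-fiber genes by group, with 1 point a mouse and a line at the group mean. Myh7, Myl2 and Myl3 step down through moderate to severe mice, whereas Tnni1 and Casq2 have their highest group mean in severe mice.

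The ratio of 2 genes within a mouse does not depend on the scaling. Myh7, the denominator used here, was chosen with its low level in severe mice known. In the 6 control and FLExD mice the ratio of Tnnt1 to Myh7 CPM ran from 0.223 to 0.265, although Myh7 itself ranged from 170 to 1083 CPM. The ratio was 0.277 to 0.587 in moderate mice and 8.54 to 20.4 in severe mice. Tnni1 to Myh7 ran from 0.0932 to 0.139 in the 6 mice without recombination, from 0.279 to 0.935 in moderate mice and from 20.9 to 45.8 in severe mice. Atp2a2 to Myh7 ran from 0.436 to 0.606, then from 0.949 to 2.54, then from 27.9 to 76.9. For these 3 genes, and for Tpm3 and Casq2, the 3 sets of mice did not overlap, an order shared by 22.9% of all other genes tested. For Tnnc1 and Myoz2 the moderate mice overlapped those without recombination, at 0.141 to 0.287 against 0.125 to 0.162 and at 0.214 to 0.463 against 0.132 to 0.249. Because Myh7 itself was so low in severe mice, a gene that did not move could show this order too.

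Within the myosin subunits the ratio moved the other way. Myl2 to Myh7 ran from 0.308 to 0.423 in control and FLExD mice, from 0.153 to 0.191 in moderate mice and from 0.0730 to 0.0840 in severe mice. Myl3 to Myh7 ran from 0.315 to 0.452, from 0.169 to 0.192 and from 0.144 to 0.146. Myl2 and Myl3 were the 2 genes, of 16678 compared with Myh7, with ratios in the opposite order and no overlap between the 3 sets. Because Myh7 was so low in severe mice, only a gene still lower in proportion could show this order. These genes and Myh7 were chosen with their levels known, so nothing is read from that count. The severe Myl2 values rest on 10 to 30 reads and those of Myl3 on 18 to 52. Among the troponins, Tnnc1 to Tnnt1 kept to 0.478 to 0.611, 0.462 to 0.510 and 0.593 to 0.725, while Tnni1 to Tnnt1 ran from 0.379 to 0.526, then from 1.01 to 1.59, then from 2.15 to 2.44.

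**Figure D3:**
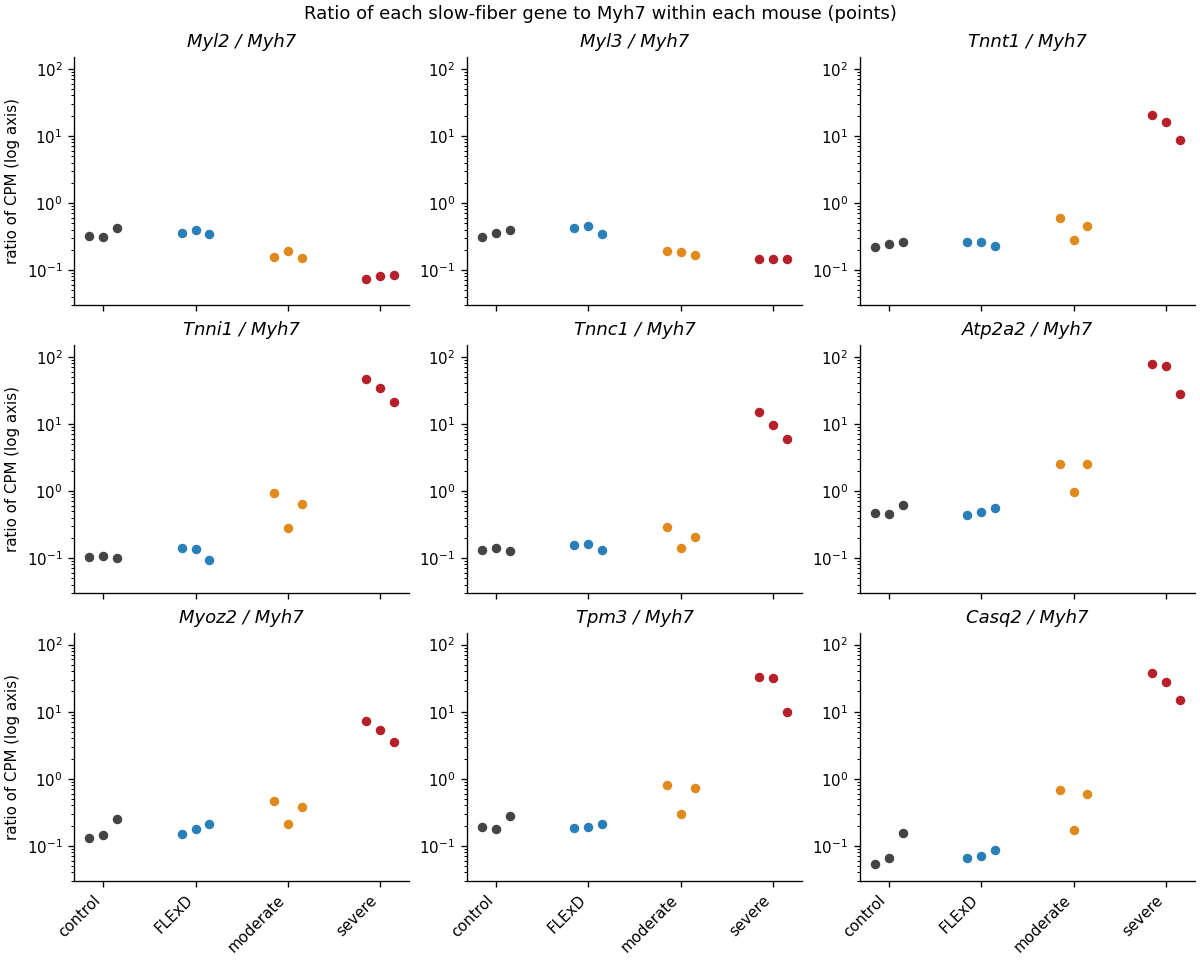
Ratio of the CPM of each slow-fiber gene to that of Myh7 within each mouse (y axis, log scale; points), by group. Tnni1 to Myh7 lies at 0.0932 to 0.139 in control and FLExD mice and at 20.9 to 45.8 in severe mice, whereas Myl2 and Myl3 to Myh7 are lower in severe mice.

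Levels of different genes were compared per transcript length, in TPM. In controls the order was Myl2 (261 ± 174 TPM; SD, n = 3), Myl3 (206 ± 159), Tnnt1 (131 ± 96.8), Tnnc1 (106 ± 85.1), Tpm3 (84.4 ± 56.3), Myh7 (81.7 ± 61.9), Myoz2 (69.7 ± 45.3), Atp2a2 (58.7 ± 40.1), Tnni1 (57.5 ± 44.5) and Casq2 (16.9 ± 9.31). No pair of neighbors in this order differed by more than the larger of their SDs. In severe mice Tnni1 led at 303 ± 62.0 TPM, beyond the spread of Tnnt1 in next place at 142 ± 21.4. Tnnc1 (131 ± 31.6), Atp2a2 (115 ± 7.07), Tpm3 (106 ± 12.2) and Casq2 (101 ± 19.7) followed without a gap beyond their SDs, then Myoz2 at 41.6 ± 10.0. Myl2 (3.12 ± 0.853), Myh7 (1.87 ± 0.909) and Myl3 (1.73 ± 0.956) were last. In severe mice each read of Myl2 was worth 1.66 to 3.29 times as much TPM as in controls, so its difference is smaller in TPM than in reads. Which scale is nearer the true difference was not tested. Each read of Tpm3 was worth 0.578 to 0.624 times as much. RSEM computes a gene's TPM from the effective lengths of its isoforms, and Tpm3 also encodes non-muscle tropomyosins that the gene total does not separate from the muscle form.

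The fast counterparts give the other side of each pair. All 12 were called lower in severe mice, and 10 of 12 in moderate mice, with none higher in either. Of all genes, 27.9% were called lower in severe mice and 17.0% in moderate mice. This list too was chosen with results of these data known, so nothing is read from these counts. For the same reason the adjusted p-values of the fast counterparts are a description and no support. The median log2 fold changes of the fast counterparts were -1.43 in moderate and -3.57 in severe mice. Myh4, the fastest and in this muscle the most abundant myosin heavy chain, fell by 3.70 on the log2 scale in severe mice (SE 0.33, adjusted p = 1.5e-07). Tpm1, the fast tropomyosin, fell by 4.06 (SE 0.23, adjusted p = 2.1e-09) and Casq1, the calsequestrin paired here with Casq2, by 3.86 (SE 0.22, adjusted p = 1.9e-09). The light chains Mylpf and Myl1 fell by 2.91 (SE 0.20, adjusted p = 9.8e-09) and 2.26 (SE 0.21, adjusted p = 3.2e-07). The troponins Tnnt3, Tnni2 and Tnnc2, the pump Atp2a1 and Myoz1 fell as well, with log2 fold changes of -3.53, -3.19, -3.34, -3.65 and -3.60 and adjusted p between 6.0e-09 and 1.6e-08.

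The slow and fast genes of a pair therefore stood in different orders by protein. Among the light chains the slow gene was the lower of the pair in fold change, with Myl2 at -8.86 and Mylpf at -2.91, and Myl3 at -8.12 and Myl1 at -2.26. Among the troponins, pump, calsequestrins, tropomyosins and myozenins the slow gene stood above its fast counterpart, as for Casq2 at 1.43 and Casq1 at -3.86. The difference within a pair was not tested. Of the fast myosins, Myh2, the type IIa form, fell by 5.56 in severe mice (SE 0.98, adjusted p = 0.00065) and Myh1, the type IIx form, by 2.26 (SE 0.35, adjusted p = 5.9e-05). In moderate mice neither passed the test, at -2.09 for Myh2 (SE 0.84, adjusted p = 0.061) and -0.63 for Myh1 (SE 0.33, adjusted p = 0.13). Myh2 had the same 3 highest mice as the slow genes, at 3906, 4211 and 4681 CPM in mice 1246, 1358 and 1367 and at 1424 to 1889 CPM in the other 3 mice without recombination. Its lowest mouse was 1127, however, not 1349. Myh1 had those 3 highest mice too, at 6526, 6415 and 6609 CPM against 2932 to 4751 CPM in the others. With pan-fiber scaling 9 fast counterparts were called lower in severe mice, and in moderate mice 1 was called lower (Tpm1) and 1 higher (Myl1). Of all genes, 1.56% were then called lower in severe mice, and 1.57% lower and 79.3% higher in moderate mice.

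**Figure D4:**
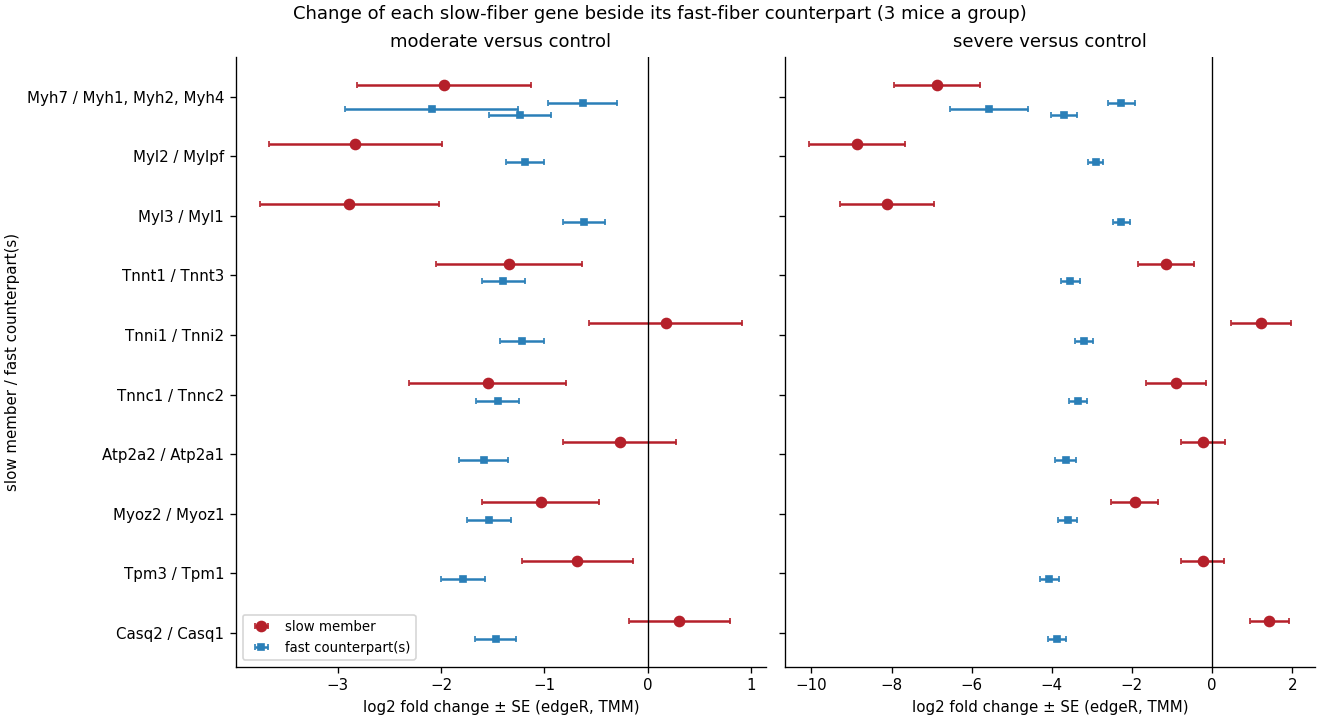
Log2 fold change with its SE (x axis) of each slow-fiber gene (circles) and its fast counterpart or counterparts (squares) in moderate and severe mice against 3 controls, from edgeR. In severe mice Myl2 and Myl3 lie left of Mylpf and Myl1, and the slow troponins lie right of the fast ones.

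As a share of its pair, the slow gene was a minor component in all mice without recombination. In controls Tnni1 was 0.445%, 1.10% and 0.143% of the summed TPM of Tnni1 and Tnni2, and in severe mice 14.8%, 6.80% and 10.0%. Casq2 was 0.761%, 2.35% and 0.644% of its pair with Casq1 in controls and 40.0%, 20.8% and 32.2% in severe mice. Atp2a2 was 0.758%, 1.94% and 0.354% of its pair with Atp2a1 in controls and 14.0%, 7.0% and 9.02% in severe mice. For these 3 pairs, and for those of Tnnt1, Tnnc1 and Tpm3, every severe mouse lay above every control and every moderate mouse. For Myoz2 the severe mice overlapped both groups. How many of all genes would show this order was not computed, and the members were chosen with these groups known, so nothing is read from it. For the myosin subunits the share was lower in severe mice, with Myl3 at 2.15%, 6.27% and 0.821% of its pair with Myl1 in controls and at 0.0493%, 0.0306% and 0.0785% in severe mice. Myh7 was 0.477%, 1.31% and 0.152% of the TPM of Myh7, Myh1, Myh2 and Myh4 in controls and 0.0804%, 0.0390% and 0.105% in severe mice. These shares depend on the fast genes as much as on the slow ones.

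**Figure D5:**
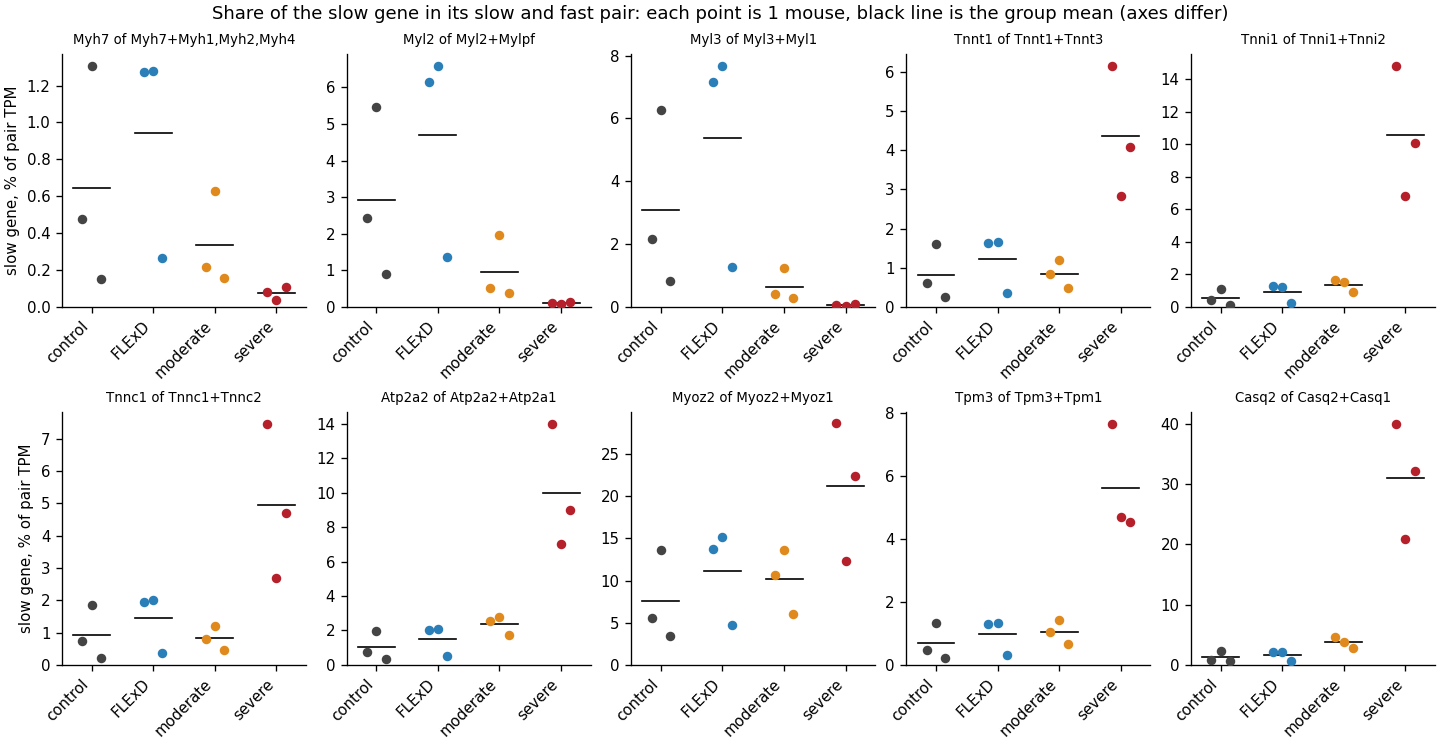
Share of the slow gene in the summed TPM of the slow gene and its fast counterparts (y axis in percent, starting at 0, with a different range in each panel), with 1 point a mouse and a line at the group mean. The share is lowest in severe mice for Myh7, Myl2 and Myl3 and highest in severe mice for the 7 other genes by group mean.

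Of 11 other genes linked to slow muscle, 4 passed the test in moderate mice, 2 lower and 2 higher, and 7 in severe mice, 5 lower and 2 higher, against the same shares of all genes called as given for the members. Their median log2 fold change was -0.62 in moderate and -1.14 in severe mice, beside 0.04 and 0.08 over all genes tested. Car3, a cytosolic carbonic anhydrase abundant in slow fibers, fell by 3.18 in moderate mice (SE 0.22, adjusted p = 4.8e-08) and fell by 4.82 in severe mice (SE 0.23, adjusted p = 4.8e-10). Car3 varied less than the members among mice without recombination, from 2310 to 3267 CPM. Mb, the oxygen store myoglobin, fell by 1.49 in moderate mice (SE 0.54, adjusted p = 0.038) and by 4.54 in severe mice (SE 0.61, adjusted p = 7.3e-05). Sln, which encodes sarcolipin, a small inhibitor of the calcium pump, was at 0.569 to 2.64 CPM in controls, 83.2 to 129 CPM in moderate mice and 58.0 to 109 CPM in severe mice. It rose by 6.21 (SE 0.44, adjusted p = 1.0e-06) and 5.90 (SE 0.43, adjusted p = 4.9e-07). Pln, which encodes the related pump inhibitor phospholamban, fell by 1.36 in severe mice (SE 0.35, adjusted p = 0.0037). Myl6b, an essential light chain of slow muscle and non-muscle cells, rose by 0.81 in moderate mice (SE 0.31, adjusted p = 0.040) and by 1.96 in severe mice (SE 0.29, adjusted p = 4.1e-05). Ankrd2 and Fabp3 fell in severe mice by 2.48 (SE 0.74, adjusted p = 0.014) and 1.59 (SE 0.53, adjusted p = 0.023), and Myh7b, Myom3, Lmod2 and Csrp3 were not called. In moderate mice the count was 2 (Car3 and Sln) without control 1127, control 1246, moderate 1236 or moderate 1331. In severe mice 4 were called with library size alone, 2 in each direction, and 8 with pan-fiber scaling, 2 lower and 6 higher, where 75.4% and 93.7% of all genes were called higher.

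Of 14 transcriptional regulators of fiber type, 5 fell and 2 rose in moderate mice, and 8 fell and 1 rose in severe mice. As shares of the 14 these can be set beside the 17.0% of all genes called lower and 24.4% called higher in moderate mice, and the 27.9% and 32.9% in severe mice. The fast-promoting factors Sox6, a repressor of slow-fiber genes, and Tbx15 fell by 1.32 (SE 0.13, adjusted p = 1.4e-06) and 1.29 (SE 0.14, adjusted p = 2.6e-06) in moderate mice. Another fast-promoting factor, Eya1, rose from 22.8 to 25.6 CPM in controls to 41.9 to 50.5 CPM in moderate mice. In severe mice Sox6 and Tbx15 fell by 2.91 (SE 0.14, adjusted p = 3.8e-10) and 2.51 (SE 0.14, adjusted p = 1.9e-09). Prox1, a homeobox factor that promotes slow genes, was at 2.84 to 4.77 CPM in controls and 9.41 to 11.6 CPM in severe mice and rose by 1.47 (SE 0.20, adjusted p = 1.2e-05). Mef2c and Ppard, which also promote the slow program, fell by 1.00 (SE 0.15, adjusted p = 4.0e-05) and 1.10 (SE 0.15, adjusted p = 1.5e-05) in severe mice. Nfatc1 and Mef2d fell as well. Most of these directions depend on the scaling. With library size alone 2 regulators were called lower in severe mice (Sox6 and Tbx15) and 7 higher, and with pan-fiber scaling 12 were called higher and none lower. With pan-fiber scaling 93.7% of all genes were called higher in severe mice, and with library size alone 75.4%. In moderate mice the splits were 3 lower and 6 higher, and 0 lower and 9 higher, where 52.5% and 79.3% of all genes were called higher. Prox1 was called higher under each of these scalings in both models.

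Genes most like the members across the 6 mice without recombination were sought by the correlation of log2 CPM with the members' mean, among genes with a mean of at least 50 counts. These mice share libraries and groups and fall into 3 high and 3 lower animals, so r is a description. The members themselves, each of which is part of that mean, had r from 0.94 for Casq2 to 1.00 for Tnnt1. The 10 nearest non-members were Sirt3, Galc, Ghitm, Idh2, Myl12a, Fndc5, Alas1, Mcee, Rhou and Sdha, with r from 1.00 down to 0.99 (n = 6). Idh2 is the mitochondrial isocitrate dehydrogenase, Sdha a subunit of succinate dehydrogenase, Sirt3 a mitochondrial deacetylase and Fndc5 the precursor of irisin. In severe mice 8 of the 10 were called lower, 1 higher (Galc, a lysosomal enzyme) and 1 not called (Myl12a), where 27.9% of all genes were called lower and 32.9% higher. Idh2 fell by 2.04 (SE 0.48, adjusted p = 0.0034), Sdha by 1.99 (SE 0.15, adjusted p = 3.8e-08) and Fndc5 by 1.70 (SE 0.44, adjusted p = 0.0066), while Galc rose by 2.07 (SE 0.17, adjusted p = 7.8e-08). In moderate mice 5 were called lower and 1 higher. On the log2(TPM + 1) scale 4 of the 10 were still among the nearest 10, namely Sirt3, Idh2, Fndc5 and Rhou.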

How the data were processed

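Single-end RNA-seq reads of gastrocnemius poly(A) RNA from 12 mice were processed by the authors with RSEM 1.2.4, modified to call Bowtie, on an mm10 annotation merged from UCSC, Ensembl and MISO, with TopHat2 2.0.8b for unaligned reads. The authors deposited RSEM expected counts for 37748 genes without normalization. A deposited table of TPM comes from the same estimates and was used to compare genes with one another. In severe mice each read of Myl2 was worth 1.66 to 3.29 times as much TPM as in controls. For Myl3, which also had few reads there, the range was 0.903 to 1.05.

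After rounding and edgeR's expression filter, the quasi-likelihood test of edgeR 4.0.16 (R 4.3.3) was run with robust dispersions and TMM scaling in 1 fit of 4 groups, with Benjamini-Hochberg adjustment over 16679 genes. SEs were derived from the F statistic. Log2 CPM used a prior count of 2. Mice were treated as independent, p-values measure the spread between them, and 3 against 3 cannot give an exact two-sided permutation p under 0.10. The test was checked on simulated counts. The study's own rule, pairwise Bayes factors, was not used. Mice with both transgenes and no TMX were not analysed here.

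The members and all gene lists were chosen with earlier results of these data known, so the adjusted p-values of listed genes are a description. Named were all members, all fast counterparts, called genes of the slow-muscle and regulator lists, the 10 genes of highest likeness, and cell type markers. Not every counted regulator is reported by name here. Alternatives were other scalings, DESeq2 1.42.0, limma 3.58.1 on log2(TPM + 1) and log2(TPM + 0.1), filters, fold thresholds, 2-group fits and each mouse left out. Positions came from GENCODE M21, which uses the same build. Figures were drawn with matplotlib 3.10.9.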

Additional observations from a re-analysis of the deposited data

Results flagged for a closer look

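Myh11, the smooth muscle myosin heavy chain and a marker of vessel walls, was higher in moderate and lower in severe mice with TMM scaling. It was flagged among the listed genes because every moderate mouse lay above, and every severe mouse below, all controls. The order of the groups was fixed by that choice, so the adjusted p-values below are no support for it. Myh11 was at 30.1, 45.5 and 26.0 CPM in controls, 59.2, 75.6 and 66.3 CPM in moderate mice and 10.1, 17.6 and 17.5 CPM in severe mice. It rose by 0.99 on the log2 scale in moderate mice (SE 0.24, adjusted p = 0.0041) and fell by 1.17 in severe mice (SE 0.24, adjusted p = 9.7e-04). Its log2 fold change in severe against moderate mice was -2.16 (SE 0.24, adjusted p = 2.9e-05). Its direction in severe mice against controls rests on that scaling: the log2 fold change was 0.12 with library size alone and 1.39 with pan-fiber scaling, while severe against moderate stayed negative at -1.47 and -0.69. The other smooth muscle markers did not fall with it, Acta2 rising by 2.42 in severe mice (SE 0.24, adjusted p = 2.0e-06) and Tagln standing at 0.05 (SE 0.17, adjusted p = 0.82). Groups of 3 mice were too small for a test of outlying samples.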

How the results depend on the processing

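Each group had 3 mice, and severe Myl2 rests on 10 to 30 reads. The median log2 fold change of all genes, 0.04 in moderate and 0.08 in severe mice against controls, was 0.65 and 1.38 with library size alone and 1.19 and 2.72 with pan-fiber scaling. With pan-fiber scaling the members called were 0 in moderate against control and 7 in severe against moderate (3 lower, 4 higher). The fast counterparts called in moderate mice were then 2, and Myoz2 turned to 0.64 in severe mice. Under that scaling 79.3% of all genes were called higher in moderate against control and 87.6% in severe against moderate mice. With only the 2 compared groups in the fit the members called were 0 in moderate mice and 6 in severe against moderate mice. With library size alone, limma on log2(TPM + 1) and limma on log2(TPM + 0.1), 4 other slow-muscle genes were called in severe mice in place of 7. At a log2 fold of at least 1 the regulators called were 3 in moderate and 5 in severe mice. On the TPM scale 4 of the 10 genes of highest likeness were shared. With each mouse left out in turn, members called ran from 0 to 4 in moderate mice, from 3 to 5 in severe mice and from 3 to 4 in severe against moderate mice, and other slow-muscle genes called from 2 to 4 in moderate mice. Causes were not tested. No paired analysis was possible because each mouse carries its own number and the groups share none.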

Other observations

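Developmental sarcomere genes, which embryonic and regenerating fibers express before the adult slow or fast forms, rose in 5 of 6 cases in both models. Of all genes, 24.4% were called higher in moderate mice and 32.9% in severe mice. Myh3, the embryonic myosin heavy chain, stood at 6.54 to 11.3 CPM in controls, 166 to 328 CPM in moderate mice and 774 to 1175 CPM in severe mice. Its log2 fold changes were 4.68 in moderate (SE 0.33, adjusted p = 2.5e-07) and 6.80 in severe mice (SE 0.36, adjusted p = 5.9e-09). In severe mice Myh3 was thus far above Myh7, which reached at most 8.62 CPM. Myh8, the perinatal heavy chain, was 6.02 log2 units higher in severe mice (SE 0.22, adjusted p = 8.8e-11), and Tnnt2, the embryonic and cardiac troponin T, was 6.04 higher (SE 0.38, adjusted p = 1.0e-07). Myl4, the embryonic light chain, rose by 3.81 (SE 0.36, adjusted p = 3.4e-06), and Myog, which encodes the differentiation factor myogenin, by 4.65 (SE 0.20, adjusted p = 4.7e-10). Actc1, the cardiac and fetal alpha-actin, was the exception, at -0.28 in moderate mice (SE 0.27, adjusted p = 0.42) and -0.99 in severe mice (SE 0.28, adjusted p = 0.0061).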
